A study of Homo sapiens with 48 samples.

Results

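The aryl hydrocarbon receptor (AHR) pathway was examined through 7 genes, AHR, ARNT, AHRR, TIPARP, CYP1A1, CYP1A2 and CYP1B1, which were selected by gene symbol from a table of 61815 gene entries. All 7 were among the 20009 genes that passed the filter on low counts. The genes were chosen with results of these data known. CYP1A1 was picked because it was among the genes most raised by androgen-depleted medium in the parental line. Its values there in cells without inhibitor are given as a description, without a test. In inhibitor-treated cells of that line its p-values are printed, but they are not independent of the choice. RNA was sequenced from 22Rv1, a cell line of human castration-resistant prostate cancer that retains the androgen receptor, and from derivatives of it. The unmodified parent is called Rv1-WT. Rv1-Luc carries firefly luciferase, delivered by a lentivirus. The lines dKO-8, dKO-8M, dKO-19 and dKO-19M share a CRISPR/Cas9 knockout of both CDK8 and CDK19, the paralogous kinases of the Mediator complex. dKO-8 and dKO-19 express wild-type CDK8 or CDK19 again from a lentivirus, whereas the protein put back into dKO-8M and dKO-19M is a kinase-inactive mutant. Each line was a separately derived culture, so differences between lines cannot be told apart from differences of derivation. Cells were treated for 72 hours with 500 nM SNX631, a selective CDK8/19 inhibitor, or with 0.1% DMSO (vehicle). Fetal bovine serum (FBS) was used for all 6 lines. For Rv1-WT and Rv1-Luc a parallel set received charcoal-stripped serum (CSS), from which charcoal has removed androgens and other small lipophilic molecules. CSS cultures had been passaged in CSS beforehand and were seeded more densely than FBS cultures. There were 16 groups of 3 libraries, 48 in all.

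AHR is a ligand-activated transcription factor that waits in the cytosol in a complex with the chaperone HSP90 and the co-chaperone PTGES3. On binding a ligand, such as a dioxin, a polycyclic aromatic hydrocarbon or a tryptophan metabolite, it moves to the nucleus, pairs with ARNT and binds DNA elements with the core GCGTG. CYP1A1, CYP1A2 and CYP1B1 encode cytochrome P450 enzymes that oxidize aromatic hydrocarbons and estrogens and are the classic targets of the receptor. AHRR, a repressor that competes for ARNT, and TIPARP, a mono-ADP-ribosyltransferase that modifies AHR, are targets that feed back on it.

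In the GENCODE annotation of GRCh38, AHR lies on the plus strand of chromosome 7 (16916359 to 17346152), ARNT on the minus strand of chromosome 1 (150809705 to 150876768), AHRR on the plus strand of chromosome 5 (304176 to 438291), TIPARP on the plus strand of chromosome 3 (156673235 to 156706770) and CYP1B1 on the minus strand of chromosome 2 (38066973 to 38109902). CYP1A1 (74719542 to 74725610, minus strand) and CYP1A2 (74748844 to 74756202, plus strand) are neighbors on chromosome 15 and are transcribed away from each other. The promoter sequences that follow are those of the genes whose RNA moved with the medium in Rv1-WT, with CYP1A2 beside CYP1A1 because both share an intergenic region. Each is the 250 bases before the annotated RefSeq start (build GRCh38.p14), read 5′ to 3′ on the gene's strand, with every GCGTG on either strand in capitals. They cover chr15:74725529-74725778 (CYP1A1, minus strand), chr15:74748595-74748844 (CYP1A2, plus strand), chr7:17298402-17298651 (AHR, plus strand) and chr3:156674340-156674589 (the first of 3 TIPARP starts, plus strand).
CYP1A1: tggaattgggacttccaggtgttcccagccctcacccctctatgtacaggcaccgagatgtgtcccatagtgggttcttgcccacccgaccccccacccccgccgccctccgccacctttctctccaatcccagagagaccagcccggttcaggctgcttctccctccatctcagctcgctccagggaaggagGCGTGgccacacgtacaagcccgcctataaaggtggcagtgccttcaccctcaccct
CYP1A2: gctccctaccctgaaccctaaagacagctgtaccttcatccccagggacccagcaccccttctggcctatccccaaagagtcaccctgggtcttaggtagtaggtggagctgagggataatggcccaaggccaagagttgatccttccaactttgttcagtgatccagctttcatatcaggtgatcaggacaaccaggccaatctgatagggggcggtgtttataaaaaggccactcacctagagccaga
AHR: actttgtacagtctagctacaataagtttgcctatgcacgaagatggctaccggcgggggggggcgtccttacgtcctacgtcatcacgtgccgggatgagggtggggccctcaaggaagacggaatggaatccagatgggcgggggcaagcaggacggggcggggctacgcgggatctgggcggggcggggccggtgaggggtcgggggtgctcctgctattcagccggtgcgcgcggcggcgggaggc
TIPARP: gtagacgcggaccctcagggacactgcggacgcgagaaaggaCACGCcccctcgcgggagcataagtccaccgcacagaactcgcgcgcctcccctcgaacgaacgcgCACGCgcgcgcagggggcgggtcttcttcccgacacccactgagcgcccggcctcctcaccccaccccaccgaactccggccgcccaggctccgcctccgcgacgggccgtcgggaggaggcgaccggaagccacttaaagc

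The CYP1A1 sequence held GCGTG once, beginning 57 bases before the start. The TIPARP sequence held it at 208 and 142 bases before the start, and the CYP1A2 sequence held none. AHR had none before its start and 1 at base 38 of the transcribed part. AHRR has 2 RefSeq starts, with the motif at 30 bases before the first and at 247 and 42 bases before the other, and the promoter of ARNT held none. In windows of 300 bases (250 before and 50 after the start), the motif was present at 5 of the 9 starts of the 6 members with an entry. CYP1B1 had no entry. These 5 letters are common: 36.5% of 35116 RefSeq promoters of this length held them, and a match is a description of the letters, not a bound site.

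The libraries held 13.2 M to 31.5 M (mega) assigned reads, with the 12 Rv1-WT libraries at 13.2 M to 18.2 M and the Rv1-Luc libraries at 19.5 M to 27.3 M. Luciferase reads were found in every Rv1-Luc library (10231 to 13996) and in no other. CDK8 RNA stood at 59.1 to 68.9 CPM (read counts scaled to a common library total) in dKO-8 and 114 to 129 CPM in dKO-8M, against 26.9 to 29.6 CPM in Rv1-WT. CDK19 RNA stood at 447 to 480 CPM in dKO-19 and 278 to 343 CPM in dKO-19M, against 151 to 294 CPM in Rv1-WT. RNA of the knocked-out gene that was not put back was still counted, with CDK8 at 23.8 to 26.7 CPM in dKO-19 and CDK19 at 97.7 to 132 CPM in dKO-8, so RNA level does not check the knockout. Androgen receptor RNA was 470 to 623 CPM in every library. The 4 plasma cell markers IGKC, IGHG1, JCHAIN and MZB1 summed to 32 to 492 counts in the 12 Rv1-Luc libraries and to 0 to 9 counts in the Rv1-WT libraries, with IGKC at 0 in all 12 of the latter. Their part in any difference between Rv1-Luc and Rv1-WT was not tested. The study's methods call the replicates biological, and libraries of a group differed by more than counting noise (chi-square per degree of freedom of at least 1.27). That excess does not show whether the replicates were independent cultures. The common dispersion of the fit corresponded to a coefficient of variation of 4.2% between replicates. Replicate 1 of dKO-19M with vehicle stood apart from the other libraries of its group (16.5 and 16), as did replicate 1 of Rv1-Luc in FBS with vehicle to a lesser degree (9.15 and 4.88, against 3.1 between the remaining pair). Leaving out either one changed no count of calls among the 7 genes, and single values that moved are given without it beside the result.

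The receptor, its partner and its targets were present at very different levels in Rv1-WT in FBS with vehicle. Per kilobase of annotated exon, ARNT stood at 12.4 ± 0.0797 CPM (SD, n = 3), TIPARP at 3.81 ± 0.114, AHR at 2.82 ± 0.132 and CYP1B1 at 1.26 ± 0.0539. CYP1A1 was at 0.646 ± 0.0947, AHRR at 0.265 ± 0.0665 and CYP1A2 at 0.0550 ± 0.0386 CPM per kilobase. In CSS with vehicle, the level of CYP1A1 per kilobase was 5.81 ± 0.410, above AHR (5.10 ± 0.297) and TIPARP (4.79 ± 0.213). Across all 48 libraries, ARNT varied least: its highest group mean was 1.30 times its lowest. That ratio was 2.32 for TIPARP, 2.40 for AHRR, 3.87 for AHR, 5.08 for CYP1B1 and 8.98 for CYP1A1. CYP1A2 was close to the limit of detection, with at most 3 counts in 26 of 48 libraries and 0 in 3. It reached the filter's level in all 3 libraries of 1 group, Rv1-WT in CSS with SNX631, and so entered the test through the group where it is high. Its values in comparisons that use that group are therefore a description, with no test, and it is left out of the counts of calls there.

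**Figure D1:**
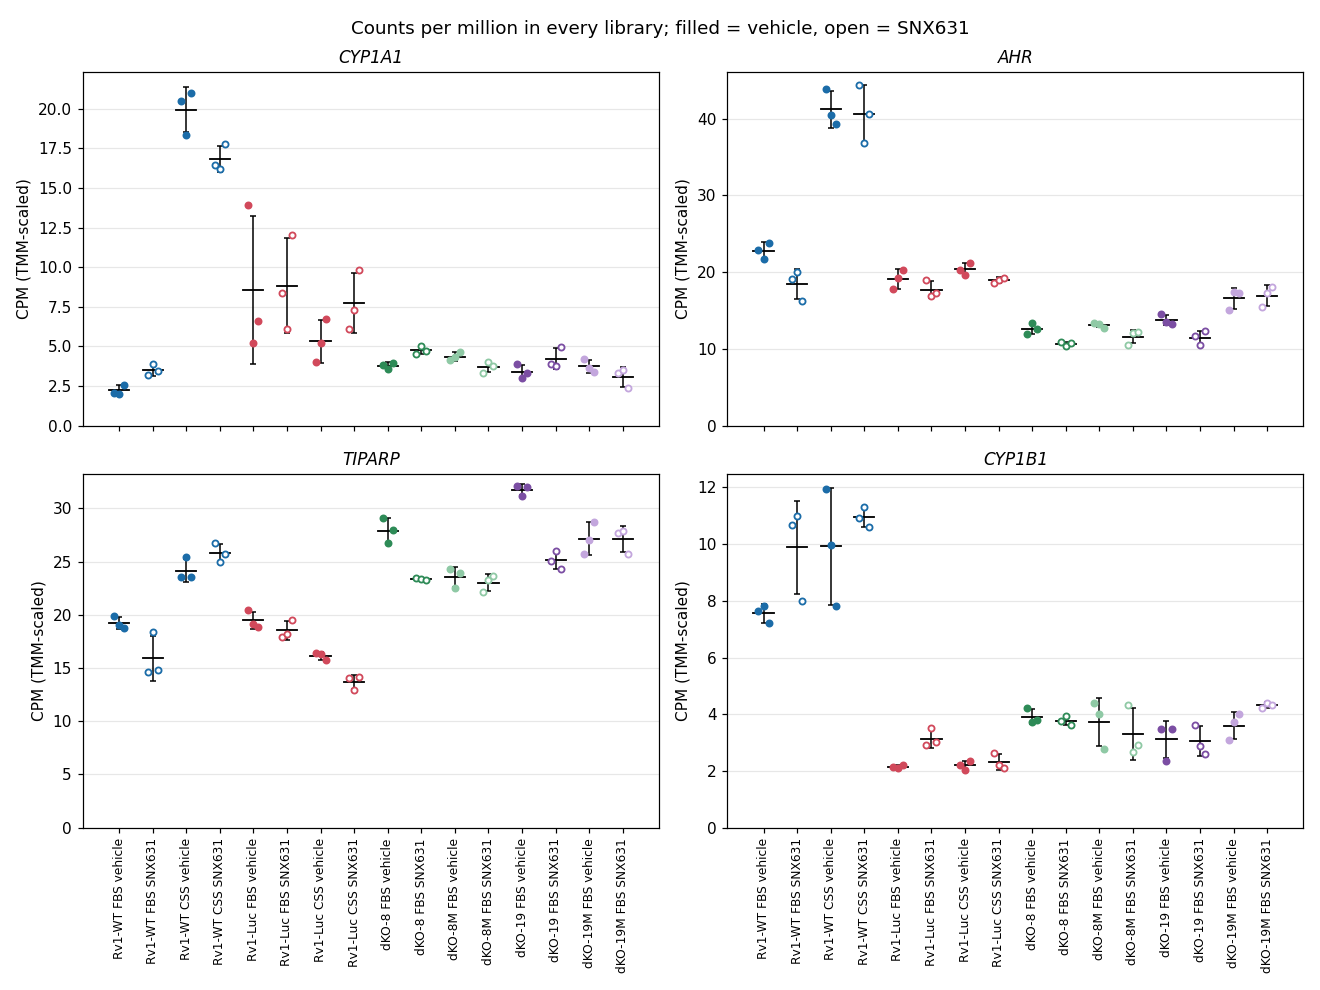
CYP1A1, AHR, TIPARP and CYP1B1 in every library, in CPM scaled by TMM factors (vertical axes, from 0) for the 16 groups (horizontal axes). Points are libraries (filled for vehicle, open for SNX631), short bars are means and error bars are the SD of 3 libraries. CYP1A1 and AHR were high in the 6 Rv1-WT CSS libraries, and CYP1B1 was highest in the 12 Rv1-WT libraries.

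The comparison of CSS with FBS asked which genes differ with the medium. The earlier passage in CSS and the denser seeding went with CSS, so they cannot be told apart from depletion of androgens and other serum lipids. In Rv1-WT, CYP1A1 RNA was several times more abundant in CSS than in FBS. AHR RNA was about 1.81 times as abundant there, and TIPARP rose less. None of the 7 genes passed both limits in Rv1-Luc, where TIPARP was lower in CSS, under the fold limit. Under vehicle, CYP1A1 stood at 2.06, 2.01 and 2.60 CPM in FBS and at 20.5, 18.3 and 21.0 CPM in CSS in Rv1-WT. The 2 groups did not overlap, and the log2 difference was 3.17 (SE 0.28), the value by which CYP1A1 was chosen. In the same libraries AHR went from 22.9, 21.7 and 23.8 CPM to 43.9, 40.5 and 39.3 CPM, a log2 difference of 0.85 (SE 0.07). The log2 difference was 0.33 (SE 0.07) for TIPARP, 0.26 (SE 0.04) for ARNT, 0.39 (SE 0.14) for CYP1B1, 1.87 (SE 0.66) for CYP1A2 and 0.01 (SE 0.20) for AHRR. All 7 values were positive, with a median of 0.39 against 0.01 over all genes. In that contrast 10.9% of all genes passed the limits of FDR below 0.01 and a change over 1.5-fold, as did AHR and CYP1A1. Nothing is read from that count, since the contrast was used to choose the genes.

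Cells treated with SNX631 gave a comparison in other libraries of the same line and media. CYP1A1 was chosen for its response to CSS in this line, so its p-value here is not independent of the choice. Under SNX631, 3 of the 6 genes other than CYP1A2 passed the limits, CYP1A1 among them, all higher in CSS. Over all genes 7.83% passed in either direction (edgeR quasi-likelihood test, Benjamini-Hochberg adjusted). CYP1A1 was 3.20, 3.91 and 3.45 CPM in FBS and 16.5, 16.2 and 17.8 CPM in CSS. It rose by 2.26 on the log2 scale (SE 0.26, 4.80-fold, 95% interval 3.32 to 6.95, adjusted p = 7.68e-09). AHR was 19.1, 20.1 and 16.3 CPM in FBS and 44.4, 36.9 and 40.6 CPM in CSS, and rose by 1.15 on the log2 scale (SE 0.07, adjusted p = 1.83e-19). TIPARP rose by 0.71 on the log2 scale (SE 0.07, adjusted p = 6.31e-13), from 14.6, 18.4 and 14.8 CPM to 26.7, 25.0 and 25.8 CPM. For these 3 genes each CSS library lay above every FBS library. The TIPARP call was lost when the test asked for a change above 1.5-fold rather than any change (adjusted p = 0.26), with the same log2 value.

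The remaining members did not pass both limits in Rv1-WT under SNX631. CYP1A2, as a description, was counted 45 times in the 3 CSS libraries and 15 times in the FBS libraries. AHRR stood at 1.75, 1.99 and 2.43 CPM in FBS and at 1.50, 1.33 and 1.30 CPM in CSS, a log2 difference of -0.59 (SE 0.21, adjusted p = 0.0234). The AHRR groups did not overlap, but AHRR shares reads with PDCD6-AHRR and PDCD6, so its counts are uncertain. PDCD6-AHRR, a read-through transcript of the neighboring gene PDCD6 into AHRR, had a log2 difference of -0.41 (SE 0.09, adjusted p = 0.000133). The log2 difference was 0.08 for ARNT (95% interval -0.01 to 0.17) and 0.16 for CYP1B1 (95% interval -0.10 to 0.42).

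**Figure D2:**
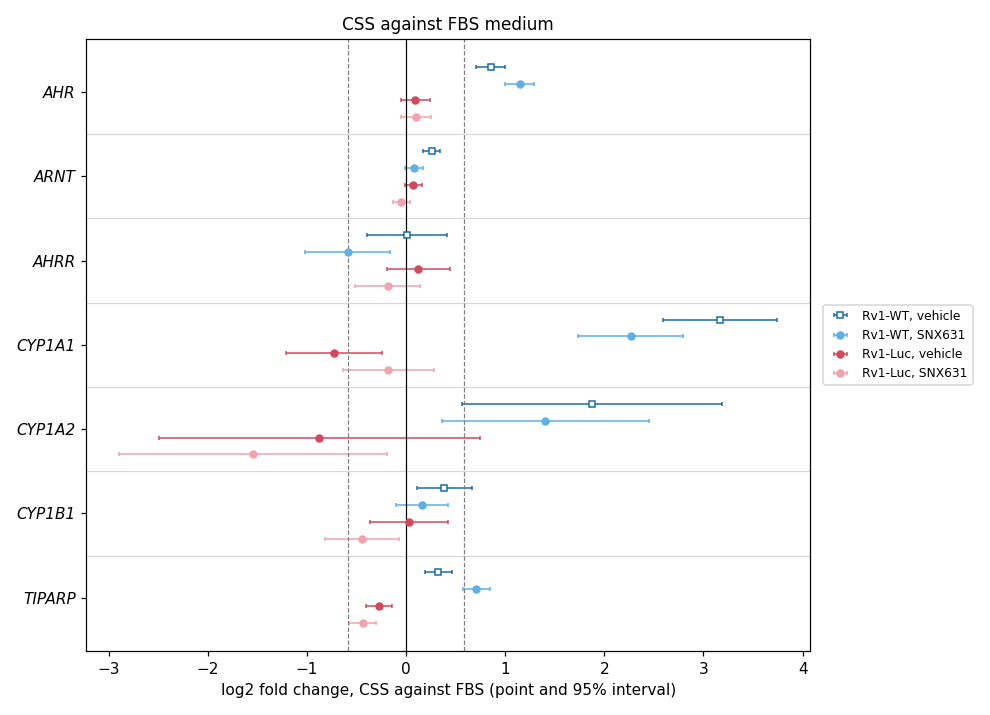
Log2 fold change of each gene in CSS against FBS (horizontal axis), with points for 4 settings of line and treatment and bars for 95% intervals. Open squares mark Rv1-WT under vehicle, which chose the genes and is a description, and dashed lines mark 1.5-fold. The CYP1A2 value of Rv1-WT under SNX631 is a description too, though drawn as a filled point. AHR, CYP1A1 and TIPARP lie to the right in Rv1-WT, while the 2 Rv1-Luc points for TIPARP lie to the left.

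In Rv1-Luc, 0 of 7 genes passed the limits in CSS against FBS under vehicle, where 1.49% of all genes did, and 0 of 7 under SNX631, where 1.51% did (edgeR). Unadjusted p was under 0.05 for 2 and 3 genes, and DESeq2 called 0 in both, with no adjusted p for 1 gene in each. AHR was 17.8, 19.3 and 20.3 CPM in FBS and 20.3, 19.7 and 21.2 CPM in CSS under vehicle. Its log2 difference was 0.09 (95% interval -0.05 to 0.24), and 0.10 (95% interval -0.05 to 0.25) under SNX631. Both intervals end below the AHR change of 1.15 seen in Rv1-WT under SNX631.

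CYP1A1 was uneven among the Rv1-Luc replicates, at 13.9, 5.24 and 6.58 CPM in FBS with vehicle and 4.01, 5.19 and 6.75 CPM in CSS with vehicle. The log2 difference was -0.72 (SE 0.24, adjusted p = 0.0369), and -0.17 without FBS vehicle replicate 1, the library at 13.9 CPM. That library held 281 plasma cell marker counts, while FBS vehicle replicates 2 and 3 held 492 and 193. Without FBS vehicle replicate 2 the log2 difference was -0.99 and passed the limits (adjusted p = 0.00218). Under SNX631, CYP1A1 was 8.40, 6.10 and 12.0 CPM in FBS and 6.13, 7.28 and 9.83 CPM in CSS, a log2 difference of -0.18 (95% interval -0.64 to 0.28). The groups overlapped in both settings. TIPARP was lower in CSS in this line, with non-overlapping groups and under the fold limit. It stood at 20.4, 19.1 and 18.9 CPM in FBS and 16.4, 16.3 and 15.7 CPM in CSS with vehicle, a log2 difference of -0.27 (SE 0.06, adjusted p = 0.00205). Without FBS vehicle replicate 1 it was -0.23 (adjusted p = 0.0241). With SNX631 the difference was -0.44 (SE 0.07, adjusted p = 2.35e-06).

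The difference between the lines in their response to CSS was itself tested under SNX631, as an interaction. It passed the limits for 3 of the 6 genes other than CYP1A2, against 5.84% of all genes, and all 3 had a smaller value in Rv1-Luc. The interaction was -1.04 (SE 0.11, adjusted p = 1.16e-11) for AHR, -2.45 (SE 0.35, adjusted p = 1.28e-06) for CYP1A1 and -1.14 (SE 0.10, adjusted p = 1.62e-14) for TIPARP on the log2 scale. The CYP1A1 value holds the response to CSS in Rv1-WT, so it is not independent of the choice of that gene. CYP1A2, as a description, had 45, 15, 7 and 25 counts in Rv1-WT CSS, Rv1-WT FBS, Rv1-Luc CSS and Rv1-Luc FBS. CYP1B1 had an interaction of -0.60 (SE 0.23, adjusted p = 0.0388), AHRR of 0.40 (SE 0.27) and ARNT of -0.13 (SE 0.06). Plasma cell markers summed to 68 to 312 counts in Rv1-Luc CSS and 32 to 224 in Rv1-Luc FBS under SNX631, and their part in these interactions was not tested. Under vehicle the corresponding values, which contain the libraries used for the choice, were -0.76 for AHR, -3.89 for CYP1A1 and -0.60 for TIPARP.

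No member passed the limits with the CDK8/19 inhibitor. Of 54 tests in 8 settings of line and medium, 0 passed both limits (edgeR) and 14 had an unadjusted p under 0.05. With no limit on fold, 9 had an adjusted p under 0.05. The 54 include CYP1A2 in Rv1-WT CSS, which is a description and is among neither the 14 nor the 9. DESeq2 called 0, but it gave no adjusted p for 2 members in dKO-19M and 1 in each other setting, which it therefore could not call. Over all genes, the share past both limits was 2.39% in Rv1-WT FBS, 4.23% in Rv1-WT CSS, 3.67% in Rv1-Luc FBS, 4.06% in Rv1-Luc CSS, 1.71% in dKO-8 and 3.41% in dKO-19. It was 0.015% in dKO-8M and 0.09% in dKO-19M. With an adjusted p under 0.05 and no fold limit, the shares were 14.5% in Rv1-WT FBS, 26.5% in Rv1-WT CSS, 20.3% in Rv1-Luc FBS, 23.9% in Rv1-Luc CSS, 13.5% in dKO-8, 20.6% in dKO-19, 0.485% in dKO-8M and 2.41% in dKO-19M.

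TIPARP had the most such values, with an adjusted p under 0.01 in 4 settings that express active Mediator kinase. In dKO-19 it was 32.1, 31.2 and 32.0 CPM with vehicle and 25.1, 26.0 and 24.3 CPM with SNX631, a log2 difference of -0.34 (95% interval -0.45 to -0.22, adjusted p = 1.18e-05). In dKO-8 it was 29.1, 26.7 and 28.0 CPM with vehicle and 23.4, 23.4 and 23.3 CPM with SNX631, a difference of -0.26 (95% interval -0.38 to -0.14, adjusted p = 0.00143). The groups did not overlap in either line. The difference was -0.29 in Rv1-WT FBS (adjusted p = 0.00367) and -0.24 in Rv1-Luc CSS (adjusted p = 0.00769), while it was -0.07 in Rv1-Luc FBS and 0.10 in Rv1-WT CSS. With 1 library left out, the adjusted p reached 0.0509 in Rv1-WT FBS, 0.0633 in Rv1-Luc CSS and 0.0193 in dKO-8. In dKO-19 it stayed at or below 0.000339. In the kinase-inactive lines TIPARP stood at -0.04 (95% interval -0.16 to 0.09) in dKO-8M and -0.003 (95% interval -0.12 to 0.11) in dKO-19M, the latter -0.04 (adjusted p = 0.873) without vehicle replicate 1.

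The difference between active and inactive kinase was tested as an interaction. For TIPARP it was -0.33 (SE 0.08, adjusted p = 0.00441) between dKO-19 and dKO-19M, and -0.22 (SE 0.09, adjusted p = 0.121) between dKO-8 and dKO-8M. Neither exceeded the fold limit. Without dKO-19M vehicle replicate 1, the first value was -0.29 (adjusted p = 0.016). Between dKO-19 and dKO-8 the interaction for TIPARP was -0.08 (95% interval -0.25 to 0.09). For CYP1A1 the interaction was 0.55 (adjusted p = 0.517) between dKO-8 and dKO-8M and 0.58 (adjusted p = 0.481) between dKO-19 and dKO-19M. Over the alternative settings, DESeq2 among them, the lowest adjusted p for these CYP1A1 values was 0.0183 and 0.114. No member passed both limits in these 3 interactions, where 2.07%, 0.905% and 0.885% of all genes did. Unadjusted p was under 0.05 for 3 members between dKO-19 and dKO-19M, 1 between dKO-8 and dKO-8M and 0 between dKO-19 and dKO-8. DESeq2 called 0 in each, with no adjusted p for 1 member in each.

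AHR with SNX631 had a log2 difference of -0.31 (95% interval -0.48 to -0.15, adjusted p = 0.00418) in Rv1-WT FBS, from 22.9, 21.7 and 23.8 CPM to 19.1, 20.1 and 16.3 CPM. The same difference was -0.27 in dKO-19 (adjusted p = 0.0192), -0.24 in dKO-8 (adjusted p = 0.0506) and -0.18 in dKO-8M (adjusted p = 0.475). In dKO-19M it was 0.03, or -0.03 without vehicle replicate 1, and in Rv1-WT CSS it was -0.02. In Rv1-Luc the AHR difference was -0.11 in FBS (adjusted p = 0.321) and -0.11 in CSS (adjusted p = 0.339). With 1 library left out, the Rv1-WT FBS difference ranged from -0.37 to -0.23, with an adjusted p of up to 0.0932. ARNT had its only adjusted p under 0.05 in Rv1-WT CSS, where it stood at 95.2, 99.3 and 94.5 CPM with vehicle and 84.7, 80.2 and 82.9 CPM with SNX631. That difference was -0.22 (SE 0.04, adjusted p = 5.31e-05), and the groups did not overlap. AHRR in the same cells had a difference of -0.58 (SE 0.21, adjusted p = 0.034), close to the fold limit.

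CYP1A1 with SNX631 had intervals that reached 0 in all but 1 of the 6 settings with a test. The exception was Rv1-Luc CSS, at 0.57 (95% interval 0.07 to 1.07, adjusted p = 0.0935). In Rv1-Luc FBS it was 0.03 (95% interval -0.42 to 0.47), and 0.58 (adjusted p = 0.0186) without vehicle replicate 1. The values were 0.32 (95% interval -0.25 to 0.90) in dKO-8 and 0.29 (95% interval -0.32 to 0.91) in dKO-19. They were -0.23 (95% interval -0.81 to 0.35) in dKO-8M and -0.29 (95% interval -0.91 to 0.33) in dKO-19M, the last -0.19 without vehicle replicate 1. In dKO-8 the vehicle libraries (3.84, 3.56 and 3.96 CPM) lay below those with SNX631 (4.54, 5.02 and 4.72 CPM). The groups of dKO-8M did not overlap either, in the other direction, while those of dKO-19 and dKO-19M did. Each interval uses a spread estimated from all 48 libraries, the uneven Rv1-Luc replicates among them. Over the alternative settings, DESeq2 among them, the lowest adjusted p for dKO-8 was 0.0414. In Rv1-WT, where CYP1A1 was chosen, the differences were 0.66 in FBS and -0.25 in CSS, as a description. CYP1B1 had a difference of 0.55 in Rv1-Luc FBS (SE 0.18, adjusted p = 0.0237, and 0.0587 without vehicle replicate 1) and of 0.37 in Rv1-WT FBS (SE 0.14, adjusted p = 0.0638). CYP1A2 had positive values in all 8 settings, from 0.40 to 1.36, each with an interval that included 0. Its value in Rv1-WT CSS uses the group that let it into the test and is a description.

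**Figure D3:**
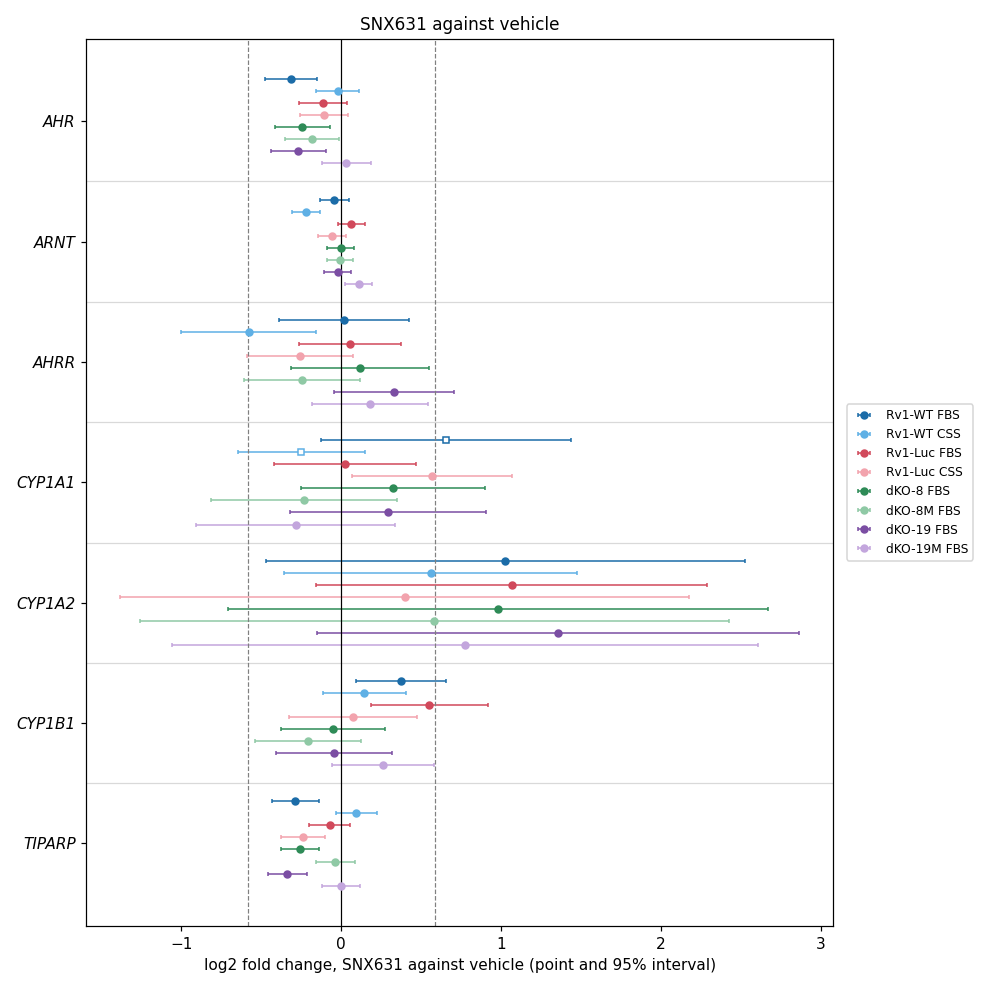
Log2 fold change of each gene with SNX631 against vehicle (horizontal axis) in 8 settings of line and medium. Points are estimates, bars are 95% intervals and dashed lines mark 1.5-fold. Open squares are the 2 CYP1A1 values that share libraries with the choice of genes. The CYP1A2 value of Rv1-WT CSS is a description too, though drawn as a filled point. No point outside CYP1A1 and CYP1A2 lies beyond the dashed lines, and the TIPARP points of dKO-8M and dKO-19M lie near 0.

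The response to SNX631 was also compared between lines and media. The interaction of SNX631 with line in FBS gave 0 of 6 members past the limits, against 0.175% of all genes, and the interaction of SNX631 with medium in Rv1-Luc gave 0 of 7, against 0.08% (edgeR). Unadjusted p was under 0.05 for 1 member in each. DESeq2 called 0, with no adjusted p for 2 members in the first interaction and 1 in the second.

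CYP1B1, a P450 expressed in many extrahepatic tissues, was lower in Rv1-Luc than in Rv1-WT in each of the 3 conditions tested. With vehicle in FBS it stood at 7.64, 7.83 and 7.20 CPM in Rv1-WT and 2.14, 2.10 and 2.22 CPM in Rv1-Luc, and it fell by 1.81 on the log2 scale (SE 0.17, adjusted p = 9.05e-14). With SNX631 the log2 difference was -1.63 in FBS (SE 0.15, adjusted p = 4.31e-14) and -2.24 in CSS (SE 0.16, adjusted p = 8.3e-19). No Rv1-Luc library reached the lowest Rv1-WT library, at 7.20 CPM. In the dKO lines CYP1B1 ranged from 2.36 to 4.41 CPM with vehicle (median 3.71, 12 libraries), also below every Rv1-WT library. CYP1B1-AS1, the antisense gene at this locus, had log2 differences of 0.11 (adjusted p = 0.853), -0.91 (adjusted p = 0.0684) and -1.02 (adjusted p = 0.0241) between Rv1-Luc and Rv1-WT in those 3 conditions.

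The other members were compared in the same conditions. In FBS with vehicle, 1 of 6 members tested passed the limits, against 17.8% of all genes. In FBS with SNX631, 2 of 7 passed, against 18.3%: CYP1B1, and CYP1A1, which was higher in Rv1-Luc by 1.33 (SE 0.28, 2.51-fold, adjusted p = 0.000126). The Rv1-Luc CYP1A1 values of 8.40, 6.10 and 12.0 CPM all lay above the Rv1-WT values of 3.20, 3.91 and 3.45 CPM. In CSS with SNX631, 5 of the 6 genes other than CYP1A2 passed, against 28.5% of all genes. AHR fell by 1.10 on the log2 scale, CYP1A1 by 1.11 and TIPARP by 0.91, each with an adjusted p of at most 3.24e-05. CYP1A2, as a description, was counted 7 times in Rv1-Luc and 45 times in Rv1-WT. AHRR was higher in Rv1-Luc by 0.81 (SE 0.20, adjusted p = 0.000314), while PDCD6-AHRR differed by 0.34. CYP1A1 thus stood above Rv1-WT in FBS and below it in CSS. Both comparisons hold groups of Rv1-WT, the line in which CYP1A1 was chosen. A test for changes above 1.5-fold ended the CYP1A1 calls in FBS (adjusted p = 0.0138) and CSS (adjusted p = 0.0133) and the AHRR call (adjusted p = 0.163). Plasma cell markers summed to 32 to 224 counts in the Rv1-Luc FBS libraries with SNX631 and 68 to 312 in those in CSS, and their part was not tested.

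**Figure D4:**
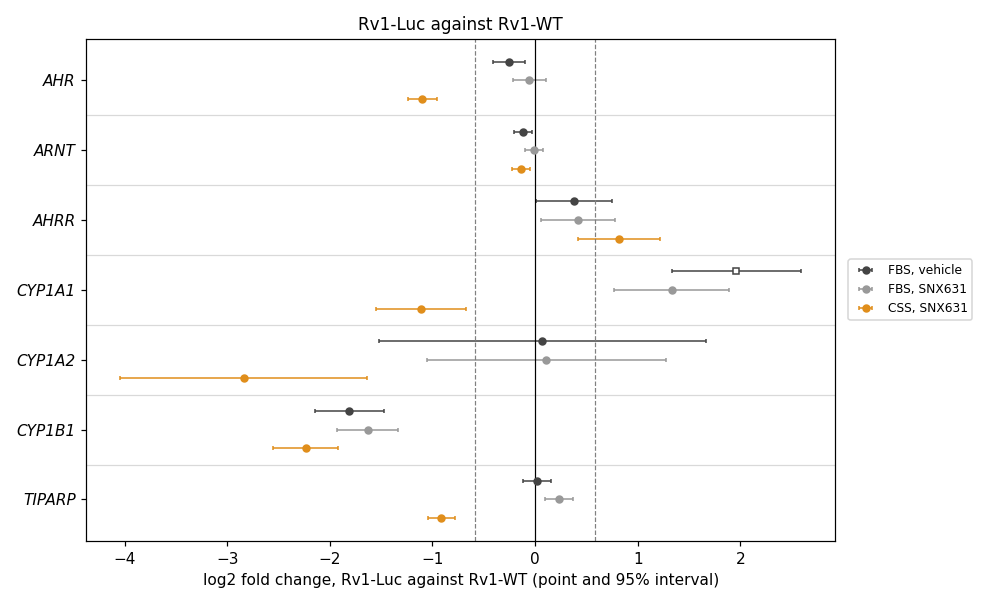
Log2 fold change of each gene in Rv1-Luc against Rv1-WT (horizontal axis) in 3 conditions. Points are estimates, bars are 95% intervals and dashed lines mark 1.5-fold. The open square is the CYP1A1 value that shares libraries with the choice of genes. The CYP1A2 value in CSS is a description too, though drawn as a filled point. CYP1B1 lies to the left in all 3 conditions, and CYP1A1 lies to the right in FBS and to the left in CSS.

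The lines with active and inactive kinase were compared next, and 1 member passed the limits in 1 of these comparisons. Between dKO-8M and dKO-8 with vehicle, 1 of 7 members passed the limits, against 7.03% of all genes. That member was AHRR, at 1.10, 1.26 and 1.26 CPM in dKO-8 and 2.03, 2.20 and 2.14 CPM in dKO-8M, a rise of 0.81 on the log2 scale (SE 0.20, adjusted p = 0.000887). PDCD6-AHRR differed by -0.03 between the same lines. The AHRR call was lost when the test asked for a change above 1.5-fold (adjusted p = 0.647). With SNX631, 0 of 7 passed between dKO-8M and dKO-8, against 5.05% of all genes, and AHRR differed by 0.44 (adjusted p = 0.11). Between dKO-19M and dKO-19, 0 of 7 passed with vehicle, against 7.6% of all genes, and 0 of 7 with SNX631, against 7.18%. Between dKO-19 and dKO-8 with vehicle, 0 of 7 passed, against 6.51%. In these 4 comparisons without a call (edgeR), unadjusted p was under 0.05 for 1, 3, 2 and 2 members in the order given. DESeq2 called 0 in each, with no adjusted p for 1 member in all but dKO-19M against dKO-19 with vehicle.

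AHR came closest to the limits between dKO-19M and dKO-19 with SNX631. It stood at 15.4, 17.2 and 18.1 CPM in dKO-19M and 11.6, 10.5 and 12.3 CPM in dKO-19, a log2 difference of 0.57 (SE 0.08, adjusted p = 1.71e-07), just short of 1.5-fold. CYP1B1 there differed by 0.50 (adjusted p = 0.0188), and by 0.64 (adjusted p = 0.0095) without dKO-19 SNX631 replicate 1. AHR passed both limits without dKO-19 SNX631 replicate 3 (0.62), without dKO-19M SNX631 replicate 1 (0.62) or with libraries thinned to equal depth (0.64). With vehicle the difference was 0.27 (adjusted p = 0.0063). TIPARP was -0.24 in dKO-8M against dKO-8 (adjusted p = 0.000948) and -0.23 in dKO-19M against dKO-19 (adjusted p = 0.00129) with vehicle, both under the fold limit. Without dKO-19M vehicle replicate 1 the second was -0.20 (adjusted p = 0.0118), and the AHR difference was 0.33 (adjusted p = 0.00161). With SNX631 the corresponding values were -0.02 and 0.11.

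The dKO lines, all grown in FBS, were not tested against Rv1-WT. With vehicle, AHR ranged from 11.9 to 17.4 CPM (median 13.4) over their 12 libraries, below the lowest Rv1-WT FBS value of 21.7. TIPARP ranged from 22.5 to 32.1 CPM (median 27.5), above the highest Rv1-WT FBS value of 19.9. CYP1A1 ranged from 3.03 to 4.65 CPM (median 3.85), between the Rv1-WT values of 2.01 to 2.60 and the Rv1-Luc values of 5.24 to 13.9.

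**Figure D5:**
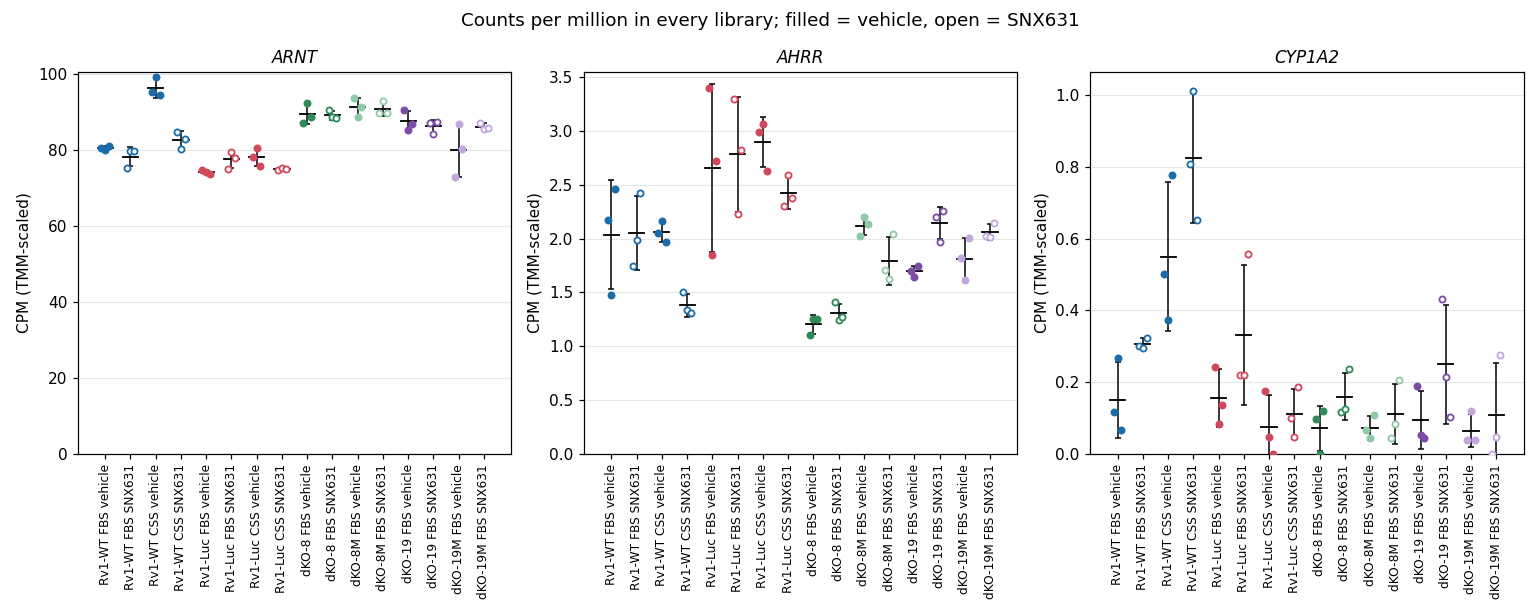
ARNT, AHRR and CYP1A2 in every library, in CPM scaled by TMM factors (vertical axes, from 0) for the 16 groups (horizontal axes). Points are libraries (filled for vehicle, open for SNX631), short bars are means and error bars are the SD of 3 libraries. ARNT stayed between 72.8 and 99.3 CPM, and the CYP1A2 points are highest in Rv1-WT CSS with SNX631.

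In the order of group means, most neighboring groups had overlapping library ranges: 11 of 15 neighboring pairs for TIPARP, 12 for AHR and ARNT, 13 for CYP1A1, CYP1B1 and AHRR, and 15 for CYP1A2. The clear step for AHR was between its CSS groups in Rv1-WT (means 41.2 and 40.7 CPM) and the next group, Rv1-WT FBS with vehicle (22.8 CPM). For CYP1A1 the 2 Rv1-WT CSS groups (19.9 and 16.8 CPM) were followed by Rv1-Luc FBS with SNX631 (8.84 CPM). TIPARP was highest in dKO-19 with vehicle (31.8 CPM) and lowest in Rv1-Luc CSS with SNX631 (13.7 CPM).

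Over the 16 group means on a log2 scale, CYP1A1 had a Pearson r of 0.713 with AHR and 0.76 with CYP1A2. The values were lower with CYP1B1 (r = 0.269), TIPARP (r = -0.105), ARNT (r = 0.0173) and AHRR (r = 0.105). These values are descriptive, since the groups share lines and the 2 Rv1-WT CSS groups stand apart. The means also include the Rv1-WT vehicle groups by which CYP1A1 was chosen, and CYP1A2 was close to the limit of detection. Among 14024 other genes with a symbol and at least 1 CPM on average, the closest to CYP1A1 were MRE11 (r = 0.922), ZCCHC4 (r = 0.916), SUPT20H (r = 0.900), SPINK5 (r = 0.899) and the read-through STX16-NPEPL1 (r = 0.895). For AHR they were PGPEP1, TRAPPC6B and HEIH (r = 0.962 to 0.966), for ARNT TMEM131, WDFY3 and USP47 (r = 0.943 to 0.952), and for CYP1B1 ST6GAL1, ROBO1 and MYNN (r = 0.967 to 0.976). For TIPARP they were TRIL, WDR41 and CNBP (r = 0.910 to 0.916), and for AHRR KLHL13, RPL36AL and BTN2A3P (r = 0.889 to 0.914).

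Other genes of the pathway were taken from lists. Of 13 further genes known to respond to AHR in various tissues, 10 passed the filter. In Rv1-WT, 2 of the 10 passed the limits in CSS under SNX631, both higher, against 7.83% of all genes in either direction, with a median log2 difference of 0.07 over the 10 against 0.01 over all genes. They were STC2, a secreted glycoprotein, which rose by 1.10 (SE 0.06, adjusted p = 3.01e-21), and the amino acid transporter SLC7A5, which is named here after its values were seen. In Rv1-Luc, 3 of the 10 were lower in CSS with vehicle, against 1.49% of all genes in either direction, and 1 with SNX631, against 1.51%. ABCG2, a drug efflux transporter, was among those with vehicle and went from 15.8 to 7.81 CPM in CSS (mean of 3, log2 difference -1.03, adjusted p = 0.00084). ABCG2 was higher with SNX631 in Rv1-WT CSS, Rv1-Luc FBS and Rv1-Luc CSS, by 0.96, 1.29 and 1.74 on the log2 scale. ABCG2 also stood at 26.7 CPM in dKO-19 with vehicle, against 1.57 CPM in dKO-8, and with SNX631 at 28.8 CPM in dKO-19, against 0.931 CPM in dKO-19M.

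With SNX631, STC2 fell by 0.92 on the log2 scale in dKO-19 and by 0.72 in dKO-8, and SLC7A5 was the other of the 2 genes lower in each line, against 3.41% and 1.71% of all genes. Between Rv1-Luc and Rv1-WT in CSS with SNX631, 6 of the 10 were lower and 1 was higher, against 28.5% of all genes in either direction. STC2 was 18.3 CPM in Rv1-Luc and 111 CPM in Rv1-WT there. UGT1A1, a glucuronosyltransferase whose gene shares exons with its neighbors, had no count in Rv1-Luc and averaged 0.219 CPM in Rv1-WT. In FBS with vehicle, 4 of the 10 were lower in Rv1-Luc and 3 were higher, against 17.8% of all genes in either direction. In FBS with SNX631, 5 were lower and 2 higher, against 18.3%. CYP2S1, another P450, was among the lower genes in FBS with vehicle. It differed by -2.22 on the log2 scale, at 1.27 CPM in Rv1-WT and 0.263 CPM in Rv1-Luc.

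ARNT2, a paralog of ARNT, was lower in Rv1-Luc than in Rv1-WT in the 3 conditions tested, at 1.34 CPM against 9.79 CPM in CSS with SNX631 (log2 difference -2.87, SE 0.18, adjusted p = 7.36e-21). HSP90AA1, the stress-inducible HSP90 gene of the cytosolic AHR complex, was higher in Rv1-Luc in that condition by 0.59 (SE 0.05, adjusted p = 1.94e-17). Of 5 other genes whose proteins can pair with ARNT, 4 passed the filter. HIF1A, the oxygen-regulated subunit of HIF-1, rose in dKO-19 with SNX631 by 0.90 (SE 0.04, adjusted p = 6.84e-26), from 262 to 490 CPM. EPAS1 was higher in dKO-19M than in dKO-19 with SNX631 by 1.08 (SE 0.18, adjusted p = 2.96e-06).

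Of the 3 genes that pass electrons to P450 enzymes, CYB5A (cytochrome b5) was lower in CSS in Rv1-WT under SNX631, where it fell by 0.67 on the log2 scale. It was higher in Rv1-Luc than in Rv1-WT in all 3 conditions, by 1.21 in CSS with SNX631 (SE 0.05, adjusted p = 9.35e-28). Of 6 genes for the supply of tryptophan-derived ligands, 1 passed the filter. The 5 genes for other xenobiotic receptors and their P450 enzymes (NR1I2, NR1I3, CYP3A4, CYP3A5 and CYP2B6) did not pass the filter.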

How the data were processed

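RNA from 48 cultures of 22Rv1 and its derivatives (16 groups of 3 libraries) was prepared with a directional kit. The authors deposited a table of expected counts per gene, in which reads shared by overlapping genes leave fractions; 81.6% of nonzero values were whole. The submitters' processing notes name FastQC, cutadapt 2.8, STAR 2.7.2b and featureCounts of Subread 2.0.3, with builds GRCh38.p13 and GRCm39; the strand setting and annotation release are not given in the sources used here. Expected counts were rounded to whole numbers, and the luciferase and blasticidin resistance entries were left out. Genes were filtered with edgeR's filterByExpr (minimum count 10, minimum total 15), leaving 20009. One model with 16 group means and TMM factors was fitted to all libraries with edgeR 4.0.16 (quasi-likelihood F-test, two-sided, R 4.3.3), and p-values were adjusted by the Benjamini-Hochberg method over all genes. A call needed an adjusted p below 0.01 and a change over 1.5-fold. DESeq2 1.42.0 and other settings served as alternatives. A member without an adjusted p from DESeq2 could not be called by it. The tests were checked on simulated counts in 1 comparison, CSS against FBS in Rv1-WT under SNX631. Of 50 genes each, 41 were recovered at a log2 change of -2, 37 at -1, 39 at 1 and 50 at 2. Among 19809 unchanged genes, 1 was called. Every simulated gene had the same relative spread, so the check does not cover genes whose spread differs between lines. CPM were scaled by TMM factors, except in the check of CDK8, CDK19 and luciferase, which used library size alone.

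All 7 members are named. From each other list, at most 4 genes with the largest log2 change among those called are named, with SLC7A5 added after its values were seen, and by Pearson's r over group means the 3 genes most like each member (5 for CYP1A1). Members and lists were chosen with earlier results of these data known. P-values set a difference against the spread between libraries within groups, estimated from all 48 libraries. They do not cover the spread between separate derivations of a line. Counts near the limit of detection carry counting error as well.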

Additional observations from a re-analysis of the deposited data

Results flagged for a closer look

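The response of 3 genes to CSS under SNX631 differed between Rv1-Luc and Rv1-WT by a test of the difference itself (edgeR interaction, 3 libraries in each of 4 groups). On the log2 scale, Rv1-Luc minus Rv1-WT was -1.04 for AHR (adjusted p = 1.16e-11), -2.45 for CYP1A1 (adjusted p = 1.28e-06) and -1.14 for TIPARP (adjusted p = 1.62e-14). The CYP1A1 value is not independent of the choice of that gene, which was picked for its response to CSS in Rv1-WT. The fitted value of CYP1A2, -2.95, is a description only: this gene passed the low-count filter through Rv1-WT CSS with SNX631, a group of this same comparison. Its adjusted p also no longer fell below 0.01 when any of 8 of the 12 libraries was left out (0.01 to 0.0615) and when a change above 1.5-fold was required (0.118). The plasma cell markers that were found in every Rv1-Luc library were at 0 to 9 summed counts in Rv1-WT, and their part in these differences was not tested.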

How the results depend on the processing

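With both limits, the 7 genes gave 0 calls for SNX631, 3 for CSS against FBS, 10 between lines and 4 for differences of effects, of which the last 2 each include 1 call of CYP1A2, which owes its place in the test to a group of that comparison. The counts other than that for SNX631 also include CYP1A1 in comparisons that hold Rv1-WT, the line in which it was chosen. With an adjusted p below 0.05 and no fold limit the counts were 9 for SNX631, 8 for CSS against FBS and 22 between lines. The 8 and the 22 include CYP1A2 in the same way. Testing against a change of 1.5-fold left 6 calls between lines, that of CYP1A2 among them. By its construction that test asks for more than a difference from 0. Leaving out 1 library at a time gave 0 to 0 calls for SNX631, 3 to 4 for CSS against FBS, 10 to 11 between lines and 3 to 4 for differences of effects. The last 2 ranges count CYP1A2 wherever it passed. CYP1A1 in Rv1-Luc CSS against FBS with vehicle passed the limits with no filter on low counts (-0.73, adjusted p = 6.42e-08); the cause was not tested. Libraries with the same replicate number were not treated as pairs: in 0 of 20 comparisons did every pair correlate above 0.1 (range -0.0933 to 0.295). This limit asks for every pair and cannot exclude pairing. In SNX631 against vehicle in dKO-19M the pairs had 0.295, 0.144 and 0.0825. The fit with the replicate block gave 0, 3, 10 and 4 calls in the order above, with CYP1A2 again in the 10 and the 4. Other scalings moved the median of all genes by at most 0.0738 on the log2 scale. Depth limits CYP1A2 above all, with at most 3 counts in 26 of 48 libraries.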
